A study of Homo sapiens with 9 samples.

Results

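The levels of 6 long noncoding RNAs, ESRG, FOXD3-AS1, MIAT, PCAT14, LINC01356 and AC131094.1, were described across the cells of human extra-embryoids (hEEs), out of 36601 genes in the files. They were chosen by their measured levels: each had been seen to differ between the gates and cell groups defined below, in these same libraries, so those differences are given as descriptions and without a test. The hEEs were aggregates of the unmodified human embryonic stem cell line ESI017, kept before aggregation on inactivated mouse feeder cells. The paper describes these as expanded potential cells, whose culture medium held a WNT inhibitor and a ROCK inhibitor. A ROCK inhibitor was also given at the start of aggregation, and the medium was changed before D4. None of the paper's signal modulation treatments is described for these hEEs. They were dissociated for single-cell RNA sequencing of transcript ends on D4 and on D6, with 1 library for each day made from pooled aggregates that had been picked for a visible inner and outer compartment. All values therefore come from 1 cell line and from aggregates picked by shape. There are no replicates, day and library cannot be told apart, and every bracketed interval is a 95% interval for counting error only. The study's 7 bisulfite libraries were not analysed here.

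The D4 library held 151712246 unique molecular identifiers (UMIs, each 1 captured transcript) in 10943 cells, and the D6 library held 150320228 in 11483 cells. Cells within the study's lower and upper limits on UMIs, and with at most 10% mitochondrial UMIs, were kept, which left 9151 cells of D4 and 10097 of D6. The libraries shared 40 cell barcodes. The embryonic gate took cells with at least 5 UMIs of POU5F1, at least 1 of SOX2 and at most 2 of FN1, and held 3716 D4 cells and 5054 D6 cells. The hypoblast gate took cells with at least 3 UMIs of FN1, none of SOX2 and at most 5 of POU5F1, and held 4061 and 3567 cells. Within the embryonic gate, TFAP2A cells had at least 2 UMIs of TFAP2A (81 cells at D4 and 350 at D6), TBXT/MIXL1 cells had at least 1 UMI of either gene (98 and 152) and CYP26A1 cells had at least 3 UMIs of CYP26A1 (460 and 599). A cell could be in more than 1 of these groups: 28 of the D4 and 29 of the D6 TBXT/MIXL1 cells were also CYP26A1 cells. Embryonic cells in none of these groups are called core cells (3114 and 4001). The median depth was 15157.5 and 14225.5 UMIs in the embryonic gate and 11012 and 10902 in the hypoblast gate, so shares of cells are given with all UMIs or after thinning, as stated. Levels are UMIs per 1000000 UMIs (CPM), summed over the cells of a group. Where groups are said to overlap in level, their intervals do. These intervals narrow as more UMIs are counted, so overlap is a description and no test of a difference.

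The groups are named by their gate genes because their other markers were uneven. A list of 9 hypoblast markers, FN1 included, summed to 8952 CPM at D4 and 23610 CPM at D6 in the hypoblast gate, and to 994 and 1148 CPM in core cells. The list of 7 pluripotent epiblast markers, with POU5F1 and SOX2 among them, ranged from 628 to 3436 CPM over the groups and was lowest in the hypoblast gate. In TFAP2A cells the 7 amnion markers, TFAP2A included, summed to 160 CPM at D4 and 274 CPM at D6, against 10.3 and 15 CPM in core cells. TFAP2B was at 0 there on both days, and ISL1 and GABRP were at 0 at D4. Most TBXT/MIXL1 cells were taken by MIXL1 alone, 91 of 98 at D4 and 127 of 152 at D6. The 6 primitive streak markers, TBXT and MIXL1 included, summed to 97.6 and 145 CPM in these cells. They were higher in the hypoblast gate, at 159 and 269 CPM, and had 5.44 and 4.36 CPM in core cells. The 4 late epiblast markers, CYP26A1 included, summed to 2099 and 2985 CPM in CYP26A1 cells. They had 1602 and 1568 CPM in core cells and 1390 and 1616 CPM in the hypoblast gate. ESRG was not on this list, though the paper also names it as expressed in its late epiblast-like cells. The 6 trophoblast markers together stayed at or under 0.215 CPM in every group. The 6 neural markers ranged from 23.6 to 148 CPM over the groups.

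Long noncoding RNAs are transcripts without a known protein product, and many of them are made in few cell types. Some act on the gene beside them, some hold protein complexes or bind small RNAs, and for many no role is known. ESRG is a transcript of human pluripotent stem cells that arises from an endogenous retrovirus of the HERV-H family, a family that is active in such cells. FOXD3-AS1 is transcribed from the strand opposite FOXD3, a forkhead transcription factor of pluripotent cells and the neural crest. MIAT is a nuclear RNA best known from neurons and heart, and PCAT14 was named for its levels in prostate cancer. For LINC01356 and AC131094.1 no role is stated here.

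In the RefSeq annotation of GRCh38.p14, ESRG lies at chr3:54632124-54639857, inside the span of CACNA2D3, a calcium channel subunit gene. FOXD3-AS1 lies at chr1:63320884-63324441 on the minus strand and overlaps FOXD3 at chr1:63322567-63325128 on the plus strand. MIAT lies at chr22:26646429-26676478 on the plus strand and PCAT14 at chr22:23538102-23547306. LINC01356 lies at chr1:112820169-112850643 on the minus strand and overlaps LINC01357, whose start is 786 bases from its own. AC131094.1 was found in the files by its symbol, beside the identifier ENSG00000249945. It had no position in this annotation, and another list of gene names gives its symbol to a different identifier. Promoter windows, 250 bases before to 50 after the RefSeq start, matched for 3 of the 6 RNAs. The table places the FOXD3-AS1 start at base 63322458, inside the gene span given above and not at its end. Counted from that inner start, the pair at FOXD3 starts 109 bases apart and its windows share 208 bases. No such overlap follows from the outer end of the span. The windows are shown, with that of FOXD3, because they differ in base content. Capitals mark the letters of a searched motif.

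FOXD3-AS1 (chr1:63322409-63322708, minus strand): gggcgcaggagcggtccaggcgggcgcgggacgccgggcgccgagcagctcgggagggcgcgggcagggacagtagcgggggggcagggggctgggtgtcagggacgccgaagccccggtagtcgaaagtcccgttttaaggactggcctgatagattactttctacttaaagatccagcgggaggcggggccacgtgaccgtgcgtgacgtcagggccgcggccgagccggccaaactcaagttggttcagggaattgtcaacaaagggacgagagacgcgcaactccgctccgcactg
FOXD3 (chr1:63322317-63322616, plus strand): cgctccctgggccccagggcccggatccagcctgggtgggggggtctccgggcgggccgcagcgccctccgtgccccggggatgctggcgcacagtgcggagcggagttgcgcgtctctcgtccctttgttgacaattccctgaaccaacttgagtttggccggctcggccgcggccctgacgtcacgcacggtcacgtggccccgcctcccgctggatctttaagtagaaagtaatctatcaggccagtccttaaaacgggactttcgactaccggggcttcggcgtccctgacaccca
MIAT (chr22:26646179-26646478, plus strand): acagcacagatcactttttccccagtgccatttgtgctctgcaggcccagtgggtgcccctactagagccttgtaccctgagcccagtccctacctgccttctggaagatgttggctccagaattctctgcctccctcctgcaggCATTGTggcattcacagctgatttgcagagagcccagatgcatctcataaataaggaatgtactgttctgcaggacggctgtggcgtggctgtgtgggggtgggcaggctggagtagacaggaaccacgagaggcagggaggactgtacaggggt
LINC01356 (chr1:112850594-112850893, minus strand): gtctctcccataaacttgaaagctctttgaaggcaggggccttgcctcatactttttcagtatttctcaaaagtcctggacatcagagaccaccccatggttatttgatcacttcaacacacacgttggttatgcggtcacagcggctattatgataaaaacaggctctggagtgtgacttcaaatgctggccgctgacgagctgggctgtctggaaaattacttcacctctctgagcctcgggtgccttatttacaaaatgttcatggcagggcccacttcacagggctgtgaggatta

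The FOXD3-AS1 window had 67.0% G or C and 33 CpG dinucleotides, and that of FOXD3 had 66.3% and 29. The MIAT window had 56.3% and 3 CpG, and the LINC01356 window 47.7% and 6, where the medians over all RefSeq promoters in the table were 58.7% and 14. 5 sets of letters were searched on both strands, without regard to overlap between them. Of 35116 promoters, the octamer ATGCAAAT was in 1.77%, the SOX letters ACAATG in 10.8%, the TFAP2 letters GCCNNNGGC in 23.2%, the GATA letters AGATAA in 10.3% and the TATA letters TATAAA in 11.5%. Among these windows the search found a single match, the SOX letters read on the other strand (CATTGT) at position -105 from the MIAT start. A match is a string of letters and not a measured binding site.

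Between the lineage gates the RNAs went in 2 directions, and none was at 0 in any group of cells. ESRG, FOXD3-AS1 and MIAT were higher in the embryonic gate on both days, PCAT14 and LINC01356 were higher in the hypoblast gate on both days, and AC131094.1 was higher in the embryonic gate at low levels. At D4, 4 of the 6 were at least 2-fold higher in the embryonic gate, where 17.2% of 21253 genes compared were, and 2 were at least 2-fold lower, where 16.0% were. At D6, 3 were at least 2-fold higher, against 22.3% of 21014 genes, and 2 were at least 2-fold lower, against 14.9%. These counts follow from how the RNAs were picked, and the shares of all genes are given for scale.

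**Figure D1:**
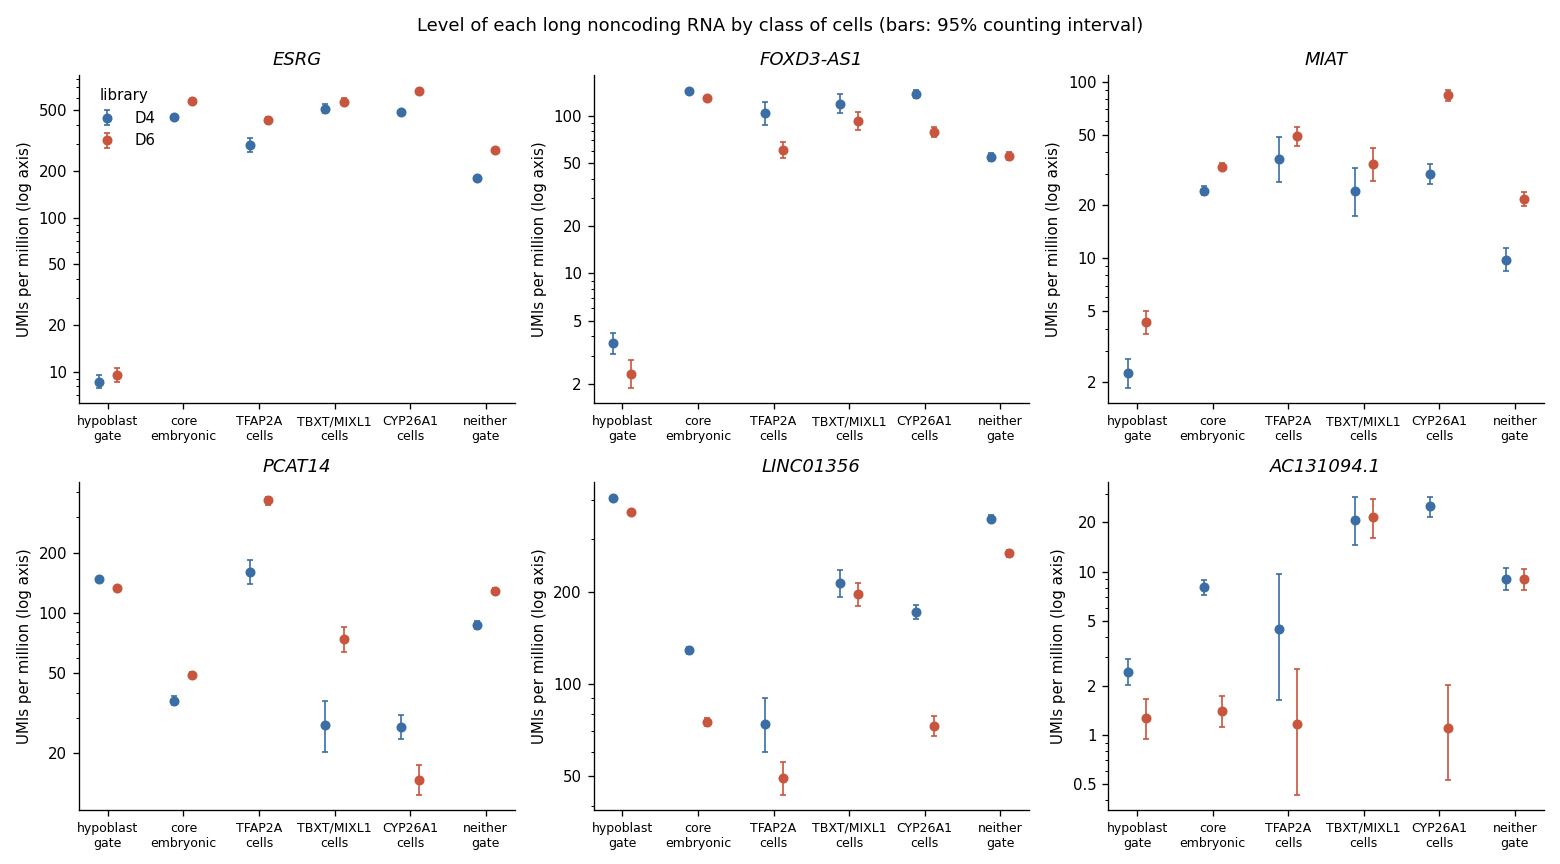
Level of each RNA, in CPM on a log axis, in each group of cells at D4 and D6, with bars for the exact Poisson 95% interval. ESRG and FOXD3-AS1 sit lowest in the hypoblast gate, LINC01356 sits highest there, PCAT14 is highest in TFAP2A cells at D6, and AC131094.1 lies above 20 CPM in TBXT/MIXL1 cells on both days.

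ESRG was the most abundant of the 6 in the embryonic gate, with 453 CPM [448, 459] at D4 and 572 CPM [567, 577] at D6. In the hypoblast gate it had 8.57 CPM [7.76, 9.44] and 9.50 CPM [8.59, 10.5]. The levels were 52.9-fold apart at D4 and 60.2-fold apart at D6, or 5.72 and 5.91 on the log2 scale. Nearly every embryonic cell held it: 98.0% of embryonic cells at D4 and 99.1% at D6 had a UMI, and 74.4% and 82.4% did after each cell was thinned to the study's lower limit of UMIs, the same number in every cell. In the hypoblast gate the thinned shares were 3.05% and 3.17%.

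Within the embryonic gate ESRG was high in each group. At D4 its order was TBXT/MIXL1 cells (509 CPM [476, 543]), CYP26A1 cells (483 CPM [468, 498]), core cells (450 CPM [444, 457]) and TFAP2A cells (296 CPM [268, 327]), and only the intervals of the first pair overlapped. At D6 the order was CYP26A1 cells (659 CPM [643, 676]), core cells (570 CPM [564, 576]), TBXT/MIXL1 cells (567 CPM [538, 597]) and TFAP2A cells (432 CPM [414, 450]), and only core and TBXT/MIXL1 cells overlapped. TFAP2A cells were thus the lowest embryonic group on both days, by 0.60 and 0.40 on the log2 scale against core cells.

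FOXD3-AS1 had 141 CPM in the embryonic gate at D4 and 119 CPM at D6. In the hypoblast gate it had 3.62 CPM [3.10, 4.20] and 2.30 CPM [1.86, 2.81], 39.0-fold and 51.7-fold lower. At D4 the embryonic groups ran from core cells (143 CPM [140, 146]) through CYP26A1 cells (138 CPM [130, 146]) and TBXT/MIXL1 cells (119 CPM [104, 137]) to TFAP2A cells (104 CPM [87.9, 123]), and each pair of neighbours overlapped. At D6 the levels of the groups spanned a wider range. Core cells had 130 CPM [127, 133], TBXT/MIXL1 cells 92.9 CPM [81.5, 105], CYP26A1 cells 78.7 CPM [73.0, 84.7] and TFAP2A cells 61.0 CPM [54.4, 68.1], and only TBXT/MIXL1 and CYP26A1 cells overlapped. TFAP2A cells were 1.10 lower than core cells on the log2 scale at D6, with a log2 ratio of -1.10 [-1.26, -0.93], and -0.45 at D4. From D4 to D6 the log2 ratio over core cells changed by -0.64 [-0.93, -0.35] in TFAP2A cells. It changed by -0.67 [-0.82, -0.53] in CYP26A1 cells and by -0.23 [-0.50, 0.04] in TBXT/MIXL1 cells.

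FOXD3, the protein-coding partner of FOXD3-AS1, had lower levels than FOXD3-AS1 and ran in the same order at D6. It had 18.8 CPM in the embryonic gate at D4 and 19.8 CPM at D6, and 0.376 and 0.168 CPM in the hypoblast gate. At D6 core cells had 21.8 CPM, TBXT/MIXL1 cells 18.7 CPM, CYP26A1 cells 12.2 CPM and TFAP2A cells 9.74 CPM. Cell by cell the pair was nearly unrelated at this depth. After thinning, FOXD3 was seen in 6.76% of D4 embryonic cells with FOXD3-AS1 and in 6.01% of those without it, and in 6.48% and 6.35% at D6. The strand setting of the counting is not given in the sources used here, so reads of the overlapping part of the pair may not have been told apart.

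MIAT was a low transcript, with 25.3 CPM in the embryonic gate at D4 and 40.1 CPM at D6. The hypoblast gate had 2.24 CPM [1.83, 2.70] and 4.33 CPM [3.72, 5.01], which is 11.3-fold and 9.26-fold lower. At D4 the order was TFAP2A cells (36.6 CPM [27.1, 48.3]), CYP26A1 cells (30.1 CPM [26.4, 34.2]), TBXT/MIXL1 cells (24.1 CPM [17.4, 32.6]) and core cells (24.1 CPM [22.7, 25.5]), with overlap between all neighbours. At D6 CYP26A1 cells came first with 83.7 CPM [77.9, 89.9]. TFAP2A cells followed with 49.1 CPM [43.2, 55.5], then TBXT/MIXL1 cells with 34.3 CPM [27.5, 42.3] and core cells with 32.9 CPM [31.4, 34.4], and only the last pair overlapped. The log2 ratio of CYP26A1 cells over core cells was 0.32 at D4 and 1.35 [1.23, 1.47] at D6. The nuclear RNAs NEAT1 and MALAT1 had log2 ratios of 1.02 and 0.60 in the same D6 comparison, and the median mitochondrial share was 1.35% in CYP26A1 cells and 2.08% in core cells. The part of these in the MIAT ratio was not tested. After thinning, MIAT was seen in 11.5% of CYP26A1 cells at D4 and in 23.2% at D6.

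PCAT14 was high in cells of both lineages. TFAP2A cells had 160 CPM [139, 183] at D4 and 363 CPM [347, 380] at D6, and the hypoblast gate had 148 CPM [144, 151] and 133 CPM [129, 137]. The whole embryonic gate had 37.7 and 66.1 CPM, 3.92-fold and 2.01-fold below the hypoblast gate. At D4 TFAP2A cells and the hypoblast gate overlapped, and so did neighbours among core cells (36.6 CPM [34.9, 38.4]), TBXT/MIXL1 cells (27.6 CPM [20.3, 36.5]) and CYP26A1 cells (27.1 CPM [23.6, 31]). At D6 no neighbours overlapped: TBXT/MIXL1 cells had 74.2 CPM [64.0, 85.5], core cells 49.1 CPM [47.3, 50.9] and CYP26A1 cells 14.8 CPM [12.4, 17.5]. TFAP2A cells were above core cells by 2.12 [1.91, 2.33] on the log2 scale at D4 and 2.89 [2.80, 2.97] at D6. CYP26A1 cells were below core cells, with log2 ratios of -0.44 at D4 and -1.73 [-1.99, -1.48] at D6.

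The share of cells with PCAT14 was highest in TFAP2A cells at D6, and at D4 it was similar in TFAP2A cells and the hypoblast gate. After thinning it was seen in 33.3% of TFAP2A cells at D4 and 59.4% at D6, in 35.6% and 34.8% of hypoblast cells, and in 9.53% and 14.2% of all embryonic cells. The D6 ratio between the lineage gates lay at the border of 2-fold, with a log2 ratio of -1.01 [-1.06, -0.95]. It was -0.85 when mitochondrial and ribosomal protein genes were left out of the totals, a change that moved every gene by 0.16 at D6, and so under 2-fold.

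LINC01356 had its highest level in the hypoblast gate, with 406 CPM [400, 412] at D4 and 365 CPM [360, 371] at D6. The embryonic gate had 135 and 75.7 CPM, 3.00-fold and 4.83-fold lower. Most hypoblast cells held it, 70.3% and 65.0% after thinning, against 29.7% and 16.2% of embryonic cells. At D4 no neighbours in the order overlapped. TBXT/MIXL1 cells had 214 CPM [193, 237], CYP26A1 cells 172 CPM [163, 181], core cells 129 CPM [126, 132] and TFAP2A cells 73.9 CPM [60.0, 89.9]. At D6 TBXT/MIXL1 cells had 197 CPM [180, 215], core cells 75.2 CPM [73.0, 77.4], CYP26A1 cells 72.8 CPM [67.4, 78.6] and TFAP2A cells 49.1 CPM [43.2, 55.5], and only core and CYP26A1 cells overlapped. The log2 ratio of TBXT/MIXL1 cells over core cells was 0.73 [0.58, 0.88] at D4 and 1.39 [1.25, 1.52] at D6.

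AC131094.1 was rare and sat in few cells. The embryonic gate had 10.5 CPM [9.67, 11.4] at D4 and 1.94 CPM [1.64, 2.28] at D6, and the hypoblast gate 2.45 CPM [2.02, 2.93] and 1.27 CPM [0.95, 1.66]. TBXT/MIXL1 cells had 20.7 CPM [14.5, 28.6] from 36 UMIs in 12 cells at D4 and 21.5 CPM [16.2, 27.9] from 55 UMIs in 12 cells at D6. The D6 value rested largely on 2 cells, which held 50.9% of these UMIs, and the share of TBXT/MIXL1 cells with AC131094.1 was 12.2% at D4 and 7.89% at D6. CYP26A1 cells had 25.1 CPM [21.8, 28.8] from 201 UMIs in 70 cells at D4 and 1.10 CPM [0.528, 2.03] from 10 UMIs in 7 cells at D6. At D4 the intervals of CYP26A1 and TBXT/MIXL1 cells overlapped, and both lay above core cells (8.01 CPM [7.23, 8.86]). These groups shared 28 cells at D4, and the part of the shared cells in either level was not tested. TFAP2A cells, with 4.48 CPM [1.64, 9.75] from 6 UMIs, overlapped both core cells and the hypoblast gate. At D6 TBXT/MIXL1 cells were alone above the rest, and core cells (1.41 CPM [1.12, 1.74]), TFAP2A cells (1.17 CPM [0.429, 2.54]), CYP26A1 cells and the hypoblast gate all overlapped. The log2 ratio of TBXT/MIXL1 cells over core cells was 1.37 [0.83, 1.86] at D4 and 3.93 [3.41, 4.44] at D6.

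In each group 1 or 2 of the 6 RNAs were at least 2-fold from core cells, a larger part than of all genes compared. These counts follow from how the RNAs were picked, and the shares of all genes are given for scale. In TFAP2A cells 1 of 6 was at D4 (PCAT14), where 4.91% of all genes compared were, and 2 were at D6 (PCAT14 higher and FOXD3-AS1 lower), where 5.30% were. In TBXT/MIXL1 cells it was 1 at D4 (AC131094.1), against 4.25%, and 2 at D6 (LINC01356 and AC131094.1), against 3.89%. In CYP26A1 cells it was 1 at D4 (AC131094.1), against 3.98%, and 2 at D6 (MIAT higher and PCAT14 lower), against 5.77%. Among long noncoding RNAs alone the shares at D4 and D6 were higher. They were 9.74% and 12.6% in TFAP2A cells, 8.81% and 9.34% in TBXT/MIXL1 cells and 8.70% and 13.1% in CYP26A1 cells. With stricter lineage gates FOXD3-AS1 was not past 2-fold in TFAP2A cells at D6.

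**Figure D2:**
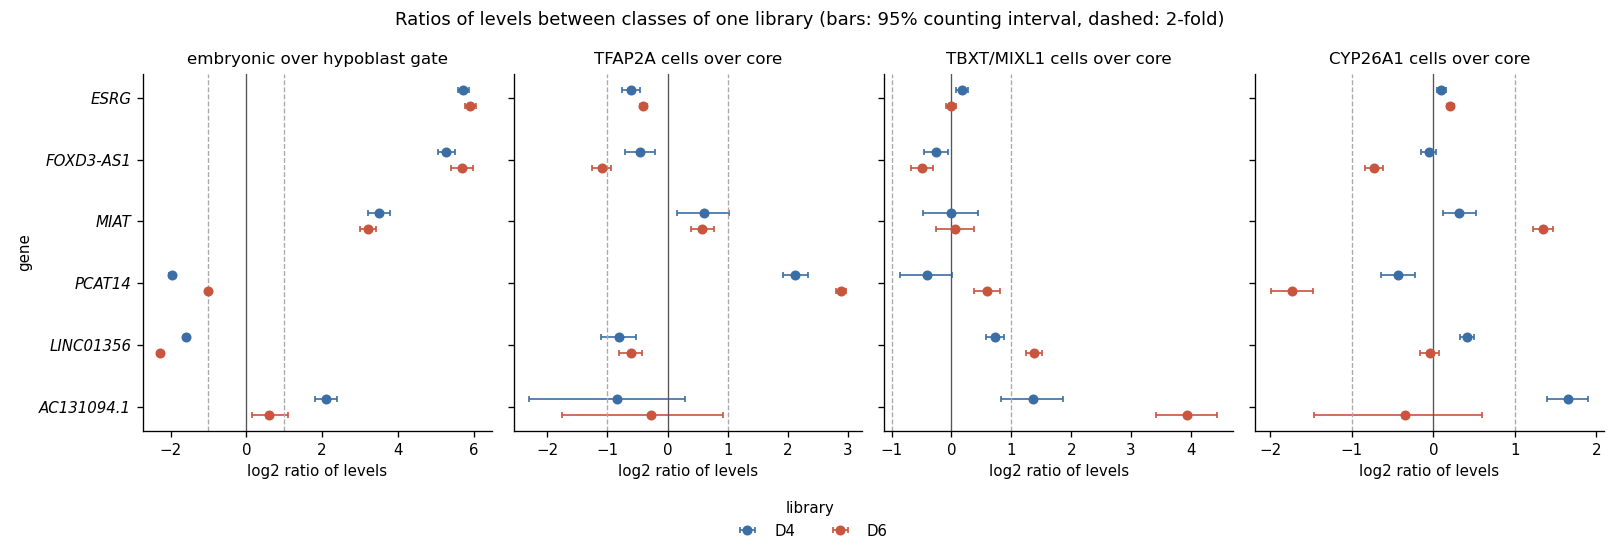
Log2 ratio of each RNA between the lineage gates and between each embryonic group and core cells, at D4 and D6, with exact conditional binomial 95% intervals. The lineage ratios of ESRG and FOXD3-AS1 lie above 5, those of PCAT14 and LINC01356 lie below 0, and the widest intervals belong to AC131094.1.

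Hypoblast transcripts moved with some of these groups. APOA1, an apolipoprotein of the hypoblast, had 17.9 CPM in core cells, 10.4 in TFAP2A cells, 48.8 in TBXT/MIXL1 cells and 39.2 in CYP26A1 cells at D4. At D6 it had 66.7, 108, 307 and 233 CPM in the same order. Embryonic cells with over 3 UMIs of APOA1 or any UMI of SOX17 or GATA6 were therefore left out, a choice made after these values had been seen. TBXT/MIXL1 cells over core cells then gave log2 ratios for LINC01356 of 0.60 at D4 and 1.19 at D6, and for AC131094.1 of 1.44 and 4.50. CYP26A1 cells over core cells at D6 gave 1.41 for MIAT and -1.96 for PCAT14.

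The hypoblast levels of ESRG and FOXD3-AS1 were set beside those of epiblast genes that no gate had used, since free RNA of 1 source would give its genes in 1 ratio. The hypoblast level of ESRG was 1.89% of the embryonic level at D4 and 1.66% at D6, and that of FOXD3-AS1 was 2.56% and 1.93%. SFRP2, a secreted Wnt modulator, had 1.54% and 1.47%, and UTF1, a chromatin protein of pluripotent cells, had 1.67% and 3.88%. They were the lowest at D4 of the genes compared that had UMIs in the embryonic gate, and ESRG and FOXD3-AS1 stood near them. Whether the UMIs of ESRG and FOXD3-AS1 in the hypoblast gate came from the cells themselves was not tested. MIAT stood higher, at 8.86% and 10.8%, beside USP44 at 11.3% and 10.8% and NANOG at 14.3% and 20.3%. Other genes of the list were spread widely. CDH1 had 3.84% and 9.01%, DNMT3B 16.5% and 17.1%, DPPA4 20.6% and 20.6%, L1TD1 25.2% and 26.6% and SALL2 32.9% and 24.8%. VRTN had 104% and 98.3% and TDGF1 had 123% and 135%, so neither was far lower in the hypoblast gate. In the other direction, the embryonic level was 25.5% and 49.7% of the hypoblast level for PCAT14, and 33.3% and 20.7% for LINC01356. Hypoblast markers were also spread widely in this measure. It was 1.28% and 0.752% for APOA1, 1.40% and 0.980% for GATA6 and 1.77% and 1.19% for GATA4. APOA2 had 1.35% and 0.868%, and FOXA2 2.60% and 0.884%. Higher values were found for APOE (17.2% and 12.66%), SOX17 (12.12% and 13.47%) and PDGFRA (70.2% and 8.03%). At D4 PDGFRA thus stood above both RNAs, while at D6 all of these markers stood below them.

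The levels were then followed along the UMI count of each gate gene, which also gives the cells just outside and just inside each threshold. PCAT14 went up with TFAP2A below the threshold as well as above it. At D4 embryonic cells with 0, 1, 2 to 3 and 4 or more UMIs of TFAP2A had 30.1, 100, 157 and 180 CPM, and at D6 they had 34.5, 174, 323 and 437 CPM. The cells with 1 UMI, just outside the threshold, were thus already above those with none.

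Along CYP26A1, cells with 0, 1 to 2, 3 to 5 and 6 or more UMIs at D6 had 32.0, 38.1, 72.3 and 99.4 CPM of MIAT. The same cells had 90.0, 40.8, 16.4 and 12.6 CPM of PCAT14 and 122, 129, 92.5 and 59.7 CPM of FOXD3-AS1. These steps took in all embryonic cells, TFAP2A cells among them. Of the 350 TFAP2A cells at D6, which were rich in PCAT14, only 13 were also CYP26A1 cells. Core cells had 49.1 CPM of PCAT14 at D6. The part of TFAP2A cells in the PCAT14 values was not tested. MIAT and PCAT14 ran in opposite directions along CYP26A1, which encodes an enzyme that breaks down retinoic acid, at D6. At D4 neither kept to a direction, with 24.1, 24.9, 32.2 and 20.5 CPM of MIAT and 47.6, 30.8, 23.8 and 41.7 CPM of PCAT14. AC131094.1 had 7.15, 9.15, 19.4 and 50.6 CPM along CYP26A1 at D4, and 1.73, 2.67, 1.71 and 0.262 CPM at D6. APOA1 was highest in the last step of CYP26A1 on both days, with 16.8, 18.9, 18.0 and 134 CPM at D4 and 67.8, 73.7, 84.9 and 437 CPM at D6. Its part in these values was not tested.

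Along the summed UMIs of TBXT and MIXL1, both transcription factors of the primitive streak, LINC01356 had 71.4 CPM in D6 cells with none and 127 CPM in those with 1. It had 231 CPM in the 7 cells with 2 and 556 CPM in the 19 cells with 3 or more. At D4 the values were 133, 188, 412 and 470 CPM, the last 2 from 5 and 4 cells. APOA1, the hypoblast transcript, had 81.9, 240, 46.1 and 730 CPM in the same steps at D6 and 19.9, 44.4, 28.1 and 165 CPM at D4, so it was also highest in the last step, and its part in the LINC01356 values was not tested. AC131094.1 at D6 had 1.25, 17.0, 55.4 and 35.9 CPM, a step at the first UMI followed by no order that these few cells can show.

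Along FN1, all kept cells were split into those with 0, 1, 2, 3 to 5 and 6 or more UMIs. FN1 is itself a threshold of both lineage gates, so these values restate the lineage pattern and are no separate support for it. ESRG had 430, 442, 266, 95.7 and 34.6 CPM at D4, and 560, 520, 363, 127 and 57.9 CPM at D6. LINC01356 had 135, 182, 333, 400 and 388 CPM at D4, and 78.0, 118, 228, 328 and 345 CPM at D6. PCAT14 had 39.0, 41.9, 67.0, 96.8 and 148 CPM at D4. Cells with 2 UMIs of FN1, the last inside the embryonic limit, lay between both ends for each of these RNAs.

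**Figure D3:**
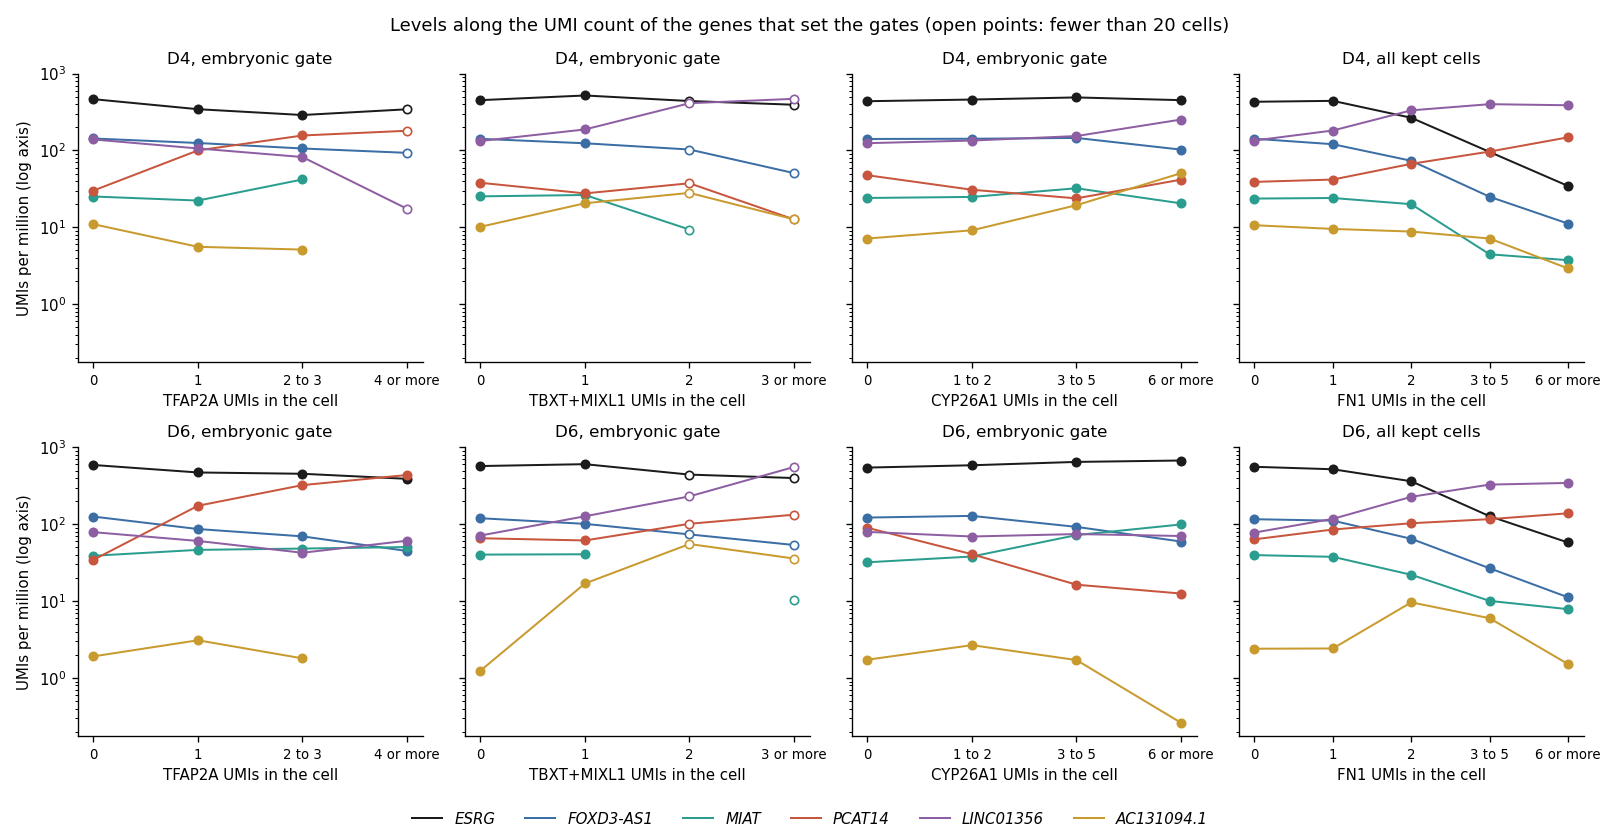
Level of each RNA, in CPM on a log axis, against the UMI count of a gate gene in the cell, at D4 and D6. Open points stand for fewer than 20 cells, and a missing point is a level of 0. PCAT14 is higher at each step of TFAP2A, MIAT is higher and PCAT14 lower with more CYP26A1 at D6, and LINC01356 is higher with more TBXT and MIXL1.

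The spread of UMIs over cells also differed among the RNAs. UMIs per cell that held an RNA follow from its level and share of cells, which had been used to choose the RNAs. The part held by the richest 1% of cells was not used itself. It also depends on that share, since an RNA seen in few cells must have its UMIs in those few. An embryonic cell with ESRG held 7.19 UMIs of it on average at D4 and 8.55 at D6, and the 1% of embryonic cells with the most held 3.64% and 3.33% of all ESRG UMIs. FOXD3-AS1 was spread almost as evenly, with 3.90% and 4.44% in the top 1% of cells, and MIAT had 10.8% and 9.69%. PCAT14 was concentrated on both days, with 20% and 17.3%. LINC01356 had 7.92% at D4 and 18.7% at D6. AC131094.1, seen in 7.53% and 1.44% of embryonic cells, had 37.5% and 84.8%.

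LINC01356 was seen in fewer TBXT/MIXL1 cells at D6, at levels whose intervals overlapped between the days. It was seen in 77.6% of them at D4 and in 48.0% at D6 (48.0% and 23.7% after thinning), while the UMIs per cell that held it were 4.91 and 6.90. PCAT14 in TFAP2A cells differed between the days in both measures, with 3.82 and 6.06 UMIs per cell that held it. In the hypoblast gate, ESRG was mostly met as a single UMI, with 84.1% of its UMIs at D4 and 90.7% at D6 in cells that held just 1. LINC01356 there had 5.05 and 4.58 UMIs per cell that held it, and PCAT14 2.46 and 2.26.

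**Figure D4:**
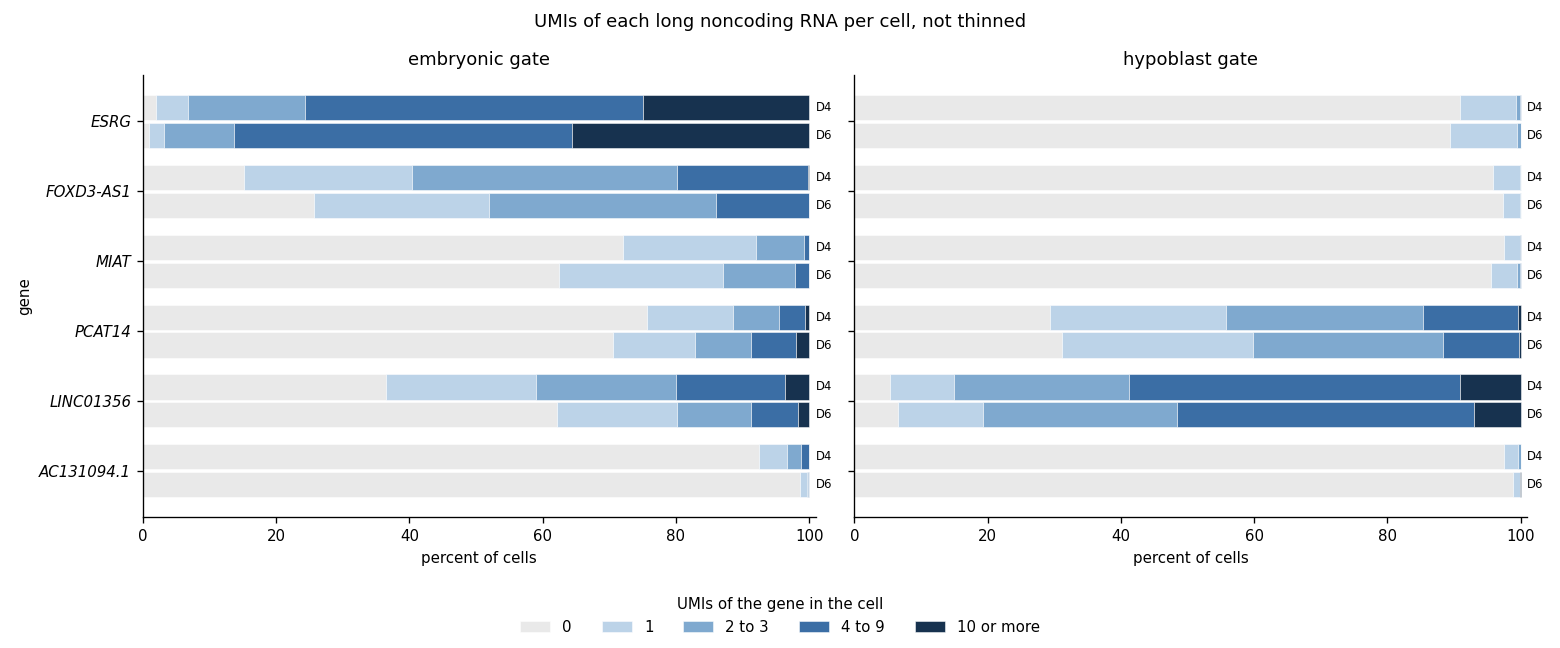
Share of cells, in percent, by the number of UMIs of each RNA they held, in the embryonic and hypoblast gates at D4 and D6. Of embryonic cells 98.0% and 99.1% hold ESRG, and of hypoblast cells 94.7% and 93.4% hold LINC01356, while AC131094.1 is seen in few cells of either gate.

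Within the embryonic gate, the counts of different RNAs in a cell were nearly unrelated at this depth, and the highest correlation between thinned counts was 0.163, for LINC01356 and AC131094.1 at D6. AC131094.1 was seen in 5.43% of the 1105 D4 cells with LINC01356 and in 1.23% of those without it. At D6 it was seen in 1.34% of the 820 cells with LINC01356, that is in 11 cells, and in 0.470% of those without it. PCAT14 was seen less in cells with ESRG (13.2%) than in cells without it (19.4%) at D6, and less in cells with FOXD3-AS1 (10.0%) than without it (16.1%). The correlations over cells were weak, as they are in sparse counts, and no relation is drawn from them.

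Between the days, the levels moved by RNA and by group of cells. In the embryonic gate 1 of the 6 was at least 2-fold apart (AC131094.1, lower at D6), where 8.87% of 21612 genes compared were, and in the hypoblast gate 0 were, where 14.0% of 20336 were. MIAT had a higher level at D6 in each group, though the intervals of TFAP2A and TBXT/MIXL1 cells include 0. It was higher by 0.67 on the log2 scale in the embryonic gate, 1.48 in CYP26A1 cells and 0.95 in the hypoblast gate. MALAT1, an abundant nuclear RNA, was also higher at D6, by 0.55, 0.93 and 0.54 in the same groups. The median mitochondrial share of UMIs was 3.82% at D4 and 1.93% at D6 in the embryonic gate and 3.75% and 2.10% in the hypoblast gate. The part of either in the MIAT values was not tested. FOXD3-AS1 was lower at D6 in each group, with log2 ratios of -0.13 in core cells, -0.78 in TFAP2A cells, -0.81 in CYP26A1 cells and -0.65 in the hypoblast gate. ESRG was higher by 0.34 in the embryonic gate and by 0.15 in the hypoblast gate, the latter with an interval that includes 0.

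PCAT14 had no common direction. Its log2 ratio of D6 over D4 was 1.19 in TFAP2A cells and 1.43 in TBXT/MIXL1 cells, and -0.88 in CYP26A1 cells and -0.15 in the hypoblast gate. In the whole embryonic gate it was 0.81, and in core cells 0.42. TFAP2A cells held 214 of the 2177 PCAT14 UMIs of the embryonic gate at D4 and 1865 of 4947 at D6. The part of their number in the ratio of the whole gate was not tested. LINC01356 had -0.84 in the embryonic gate, -1.24 in CYP26A1 cells, -0.12 in TBXT/MIXL1 cells (an interval that includes 0) and -0.15 in the hypoblast gate. AC131094.1 had -2.44 in the embryonic gate and -4.51 in CYP26A1 cells, while TBXT/MIXL1 cells had 0.05 [-0.58, 0.70]. The 6 RNAs were also present in the 1374 D4 and 1476 D6 cells that neither gate took, where LINC01356 had 349 and 268 CPM, ESRG 181 and 274 CPM and PCAT14 87.4 and 129 CPM.

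**Figure D5:**
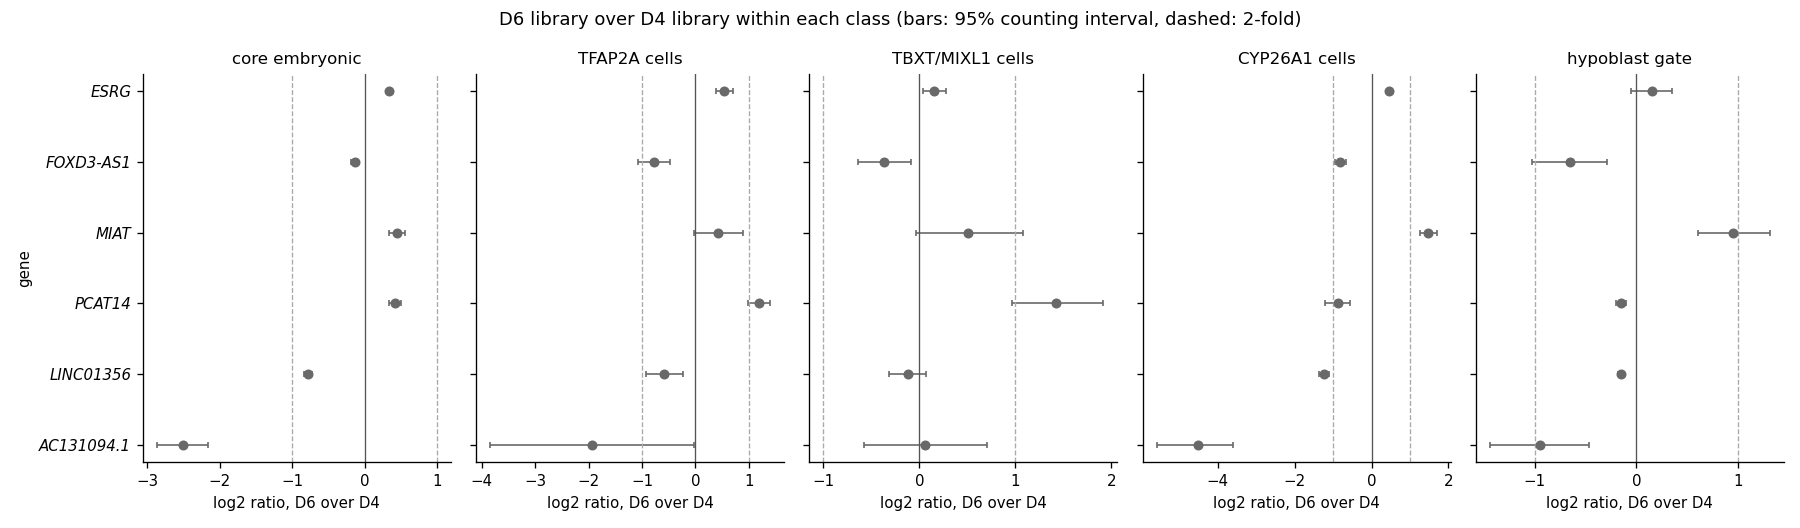
Log2 ratio of D6 over D4 for each RNA in each group of cells, with exact conditional binomial 95% intervals that cover counting error only. The points of MIAT lie above 0 and those of FOXD3-AS1 below 0 in each group, while PCAT14 lies on both sides.

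Other long noncoding RNAs of pluripotent cells showed the same direction between the gates for the most part. Of 12 on a list, 11 were in the files, and at D4 8 of them were at least 2-fold higher in the embryonic gate and 0 lower, with a median log2 ratio of 3.24, where the median over all genes was 0.05. At D6 8 were at least 2-fold higher and 1 at least 2-fold lower, with a median of 2.85 beside 0.16 over all genes. LINC00678 had 146 CPM in the embryonic and 1.67 CPM in the hypoblast gate at D4, a log2 ratio of 6.45 and thus larger than that of ESRG. The RNA at least 2-fold lower at D6 was LINC00458, with 520 CPM in the embryonic and 1971 CPM in the hypoblast gate. Of 9 RNAs known from endoderm and mesoderm, 5 had at least 10 UMIs over both gates. LINC00261, GATA6-AS1 and MEG3 were at least 2-fold higher in the hypoblast gate on both days. Among 15 broadly expressed RNAs, 4 were at least 2-fold higher and 1 (NEAT1) at least 2-fold lower in the embryonic gate at D4. At D6 these counts were 5 and 1. For scale, of all long noncoding RNAs compared at D4, 22.8% were at least 2-fold higher in the embryonic gate and 23.5% at least 2-fold lower. At D6 these shares were 29.9% and 18.4%.

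The genes beside the RNAs differed in whether they shared the lineage pattern. FOXD3 did, as given above, and so did CACNA2D3 around ESRG, at far lower levels: it had 6.30 and 4.02 CPM in the embryonic gate and 0.523 and 0.12 CPM in the hypoblast gate. SELENOK, the nearest gene below ESRG, ran the other way, with 70.6 and 74.4 CPM against 124 and 131 CPM. SLC16A1, a lactate transporter gene near LINC01356, had 251 and 290 CPM in the embryonic and 233 and 232 CPM in the hypoblast gate, and LINC01357 was at 0 in the embryonic gate. MIATNB, which overlaps MIAT, had 3.03 and 2.71 CPM in the embryonic and 3.76 and 4.26 CPM in the hypoblast gate.

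For each RNA, the 3 genes most like it were found by Pearson's r of log2(CPM + 1) over 10 points, the 5 groups of cells on 2 days. The points share 2 libraries and 2 lineages, so a high r is common, and r is given without a p. ESRG was most like AC009446.1 (0.997), LINC00678 (0.996) and POLR1B (0.996), and FOXD3-AS1 most like EIF5A (0.998), FXYD5 (0.998) and C1QBP (0.997). A high r takes no account of the size of a difference. EIF5A had 350 and 320 CPM in the hypoblast gate and 737 and 707 CPM in core cells, far closer than the levels of FOXD3-AS1. MIAT was most like UGP2 (0.988), PMEL (0.987) and NOS1AP (0.985), and LINC01356 most like CDC42SE2 (0.982), ZNF24 (0.962) and MEIS3 (0.959). PCAT14 and AC131094.1 had no gene as near: for PCAT14 these were OAT (0.931), ID1 (0.916) and SMAD7 (0.915), and for AC131094.1 DIAPH1 (0.901), PEA15 (0.896) and TJAP1 (0.886).

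Counting of some of the RNAs can be affected by sequence that they share with other genes. In the last 500 bases of their transcripts in GENCODE, 0 of 470 words of 31 bases of ESRG and 0 of 1721 of FOXD3-AS1 were found in transcripts of other genes. For MIAT it was 199 of 6139 (3.24%), for AC131094.1 83 of 930 (8.92%) and for PCAT14 156 of 1410 (11.1%). For LINC01356 it was 237 of 621 (38.2%), so its level is the least certain of the 6 in this respect.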

How the data were processed

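The authors deposited UMI counts per gene and cell, made with Cell Ranger 6.0.1 per the submitters' processing notes, which also name Seurat 4.0.1, R 4.0.3 and hg38. The counts were not normalized, and the strand setting is not given in the sources used here. The 6 RNAs, the gene lists and the named genes were chosen with earlier results of these data known. Cells were kept and gated as described in the text, UMIs were summed over cells, and levels were given per 1000000 UMIs. Intervals are exact Poisson for levels, exact binomial for shares and exact conditional binomial for log2 ratios. They cover counting error only, and with 1 library per day no test was run.

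A gene entered a comparison with an expected count of at least 3 in the smaller group. For thinned shares, each kept cell was reduced to the study's lower limit of UMIs. Genes most like an RNA had to reach 10 CPM in a group and were ranked on log2(CPM + 1), leaving out mitochondrial and ribosomal protein genes. The named genes were the 6 RNAs, the lists and neighbours, and for each RNA the 3 most alike genes. The fold counting was tried on simulated Poisson counts only. These hold no clumping of UMIs in few cells, so intervals for RNAs spread that way were not tested. Python 3.11.15, numpy 2.4.6, scipy 1.17.1 and pandas 2.3.3 were used. Scrublet in scanpy 1.11.5 called 353 D4 cells (3.86%) and 432 D6 cells (4.28%) doublets, which were left out in 1 alternative only. Other alternatives changed the cell filter, gates, level, totals, depth, fold and count minimum.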

Additional observations from a re-analysis of the deposited data

Results flagged for a closer look

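PCAT14 differed in direction between groups of cells from D4 to D6. Its log2 ratio of D6 over D4 was 0.81 in the embryonic gate, 0.42 in core cells, 1.19 in TFAP2A cells and 1.43 in TBXT/MIXL1 cells. It was -0.88 in CYP26A1 cells and -0.15 in the hypoblast gate. Each group had 1 library per day, so the difference between the groups was not tested.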

How the results depend on the processing

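Of 27 log2 ratios of the 6 RNAs past 2-fold, 188 recomputed values all kept their sign and 181 stayed past 2-fold. Of 51 others, 354 of 376 kept their sign and 23 passed 2-fold. Ratios with 0 UMIs in a group could not be recomputed and are in neither count. Among them was MIAT in TFAP2A over core cells at D4. It had a log2 ratio of 0.60 with the main thresholds and 0 UMIs in the 9 cells of the stricter ones. The causes were not tested. With a 4-fold limit the genes past it were 3442 at D4 and 3960 at D6 between the lineage gates (7057 and 7821 at 2-fold), 107 and 164 in TFAP2A cells (602 and 822), 103 and 90 in TBXT/MIXL1 cells (546 and 544) and 123 and 220 in CYP26A1 cells (646 and 974). Between days they were 368 in the embryonic gate (1918) and 779 in the hypoblast gate (2854). With an expected count of at least 10, fewer genes entered. Those past 2-fold were 125 and 266, 107 and 95, and 139 and 349 in the same 3 groups, and 849 and 1589 between days. Stricter thresholds gave 826 and 901 genes in TBXT/MIXL1 cells.

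Of the 6 RNAs, stricter thresholds put 3 past 2-fold in TFAP2A cells at D4, 2 and 4 in TBXT/MIXL1 cells and 4 in CYP26A1 cells at D6. The shares of all genes compared were then 10.5%, 12.4% and 8.91%, and 6.65%. AC131094.1 did not enter in these TFAP2A and TBXT/MIXL1 cells, since its expected count, taken from the pooled level of both groups, was under the minimum. At D6 it still had 6 UMIs (55.4 CPM) in the 7 cells with 2 UMIs of TBXT and MIXL1. It had 14 UMIs (35.9 CPM) in the 19 cells with 3 or more. The stricter D4 groups were small: TFAP2A had 9 cells, with 0 UMIs of MIAT, and TBXT/MIXL1 had 5 cells with 2 UMIs and 4 with more. In these TFAP2A cells MIAT was counted as past 2-fold, on the lower side. At 4-fold 1 passed in TFAP2A cells at D6, 0 and 1 in TBXT/MIXL1 cells and 0 and 0 in CYP26A1 cells. The shares of all genes compared were then 1.06%, 0.801% and 0.643%, and 0.757% and 1.30%. In TBXT/MIXL1 cells 0 passed at D4 with 8000 to 20000 UMIs per cell, and 1 was left at D6 with an expected count of 10. Of all genes compared, 5.32% and 0.847% passed in these settings. Without cells holding hypoblast transcripts 2 passed in TFAP2A cells at D4, where 5.24% of all genes compared did. Between days in the hypoblast gate 1 passed with all cells, 2 with the mean over cells and 1 with mitochondrial and ribosomal protein genes left out of the totals. Of all genes compared, 14.0%, 14.4% and 14.1% passed in the same settings. No paired analysis was possible because each day had 1 library and no test was run.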
